A study of Mus musculus with 3 samples.

Results

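Regions of chromatin that carried H3K4me3 peaks 4 h after the ovulatory signal, and at neither 0 h nor 12 h, are described here in mouse granulosa cells. Peaks from the 3 deposited lists on chromosomes 1 to 19 and X were pooled, and peaks within 1 kb of each other were joined into a domain. Of 14778 domains, 1112 held a 4 h peak and no 0 h or 12 h peak, which is 7.52% of all domains (95% interval 7.10 to 7.96) and 8.34% (7.88 to 8.82) of the 13333 domains with any 4 h peak. They are called 4 h alone domains below, and positions are in the mm10 build. They were chosen by the presence and absence of peaks in these same lists, so the lack of covered bases at 0 h and 12 h is a property of the choice and not a result.

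The cells came from the ovaries of wild type C57BL/6 female mice at postnatal days 21 to 28. All mice received 4 IU of eCG, a hormone that drives follicles to grow. The 0 h library was taken before hCG, which acts on the LH receptor and starts ovulation and luteinization, and the 4 h and 12 h libraries were taken after 5 IU of hCG. Cells were released by puncturing follicles, and the labels state no sort. There was 1 library per time, and the sources used here do not say how many mice went into it. No difference between times therefore has a replicate error, and every interval below is an exact Clopper-Pearson or order-statistic interval that covers counting error only.

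Trimethylation of histone H3 on lysine 4 marks the starts of active and inducible genes, where it usually lies just downstream of the first transcribed base. In granulosa cells of the preovulatory follicle, the LH surge raises cyclic AMP and switches on a brief wave of genes for EGF-like ligands, prostaglandin synthesis and the matrix that swells around the oocyte. Much of that wave subsides as the cells turn into luteal cells.

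The 4 promoters below belong to the ovulatory response genes with the widest 4 h alone domains at a start of known strand. Each is the stretch of 250 bases before the annotated start, from RefSeq on GRCm38.p6. Capitals mark matches, on either strand, to the cyclic AMP response element (CRE, TGACGTCA) or its core TGACG, to AP-1 (TGANTCA), C/EBP (TTGCNNAA), RUNX (TGTGGT) and NR5A (CAAGGTCA) motifs, and to the TATA box (TATAAA).
Ptgs2, chr1:150099781-150100030, plus strand: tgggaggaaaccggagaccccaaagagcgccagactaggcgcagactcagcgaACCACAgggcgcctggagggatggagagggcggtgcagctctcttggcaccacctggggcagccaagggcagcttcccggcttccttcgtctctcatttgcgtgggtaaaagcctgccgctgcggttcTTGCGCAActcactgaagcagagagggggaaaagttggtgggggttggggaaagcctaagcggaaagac
Areg, chr5:91139349-91139598, plus strand: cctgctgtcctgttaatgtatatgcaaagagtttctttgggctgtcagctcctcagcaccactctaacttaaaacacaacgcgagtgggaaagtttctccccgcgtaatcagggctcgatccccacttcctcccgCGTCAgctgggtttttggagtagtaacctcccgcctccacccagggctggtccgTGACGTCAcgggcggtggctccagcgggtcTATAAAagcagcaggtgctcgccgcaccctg
Ptx3, chr3:66219637-66219886, plus strand: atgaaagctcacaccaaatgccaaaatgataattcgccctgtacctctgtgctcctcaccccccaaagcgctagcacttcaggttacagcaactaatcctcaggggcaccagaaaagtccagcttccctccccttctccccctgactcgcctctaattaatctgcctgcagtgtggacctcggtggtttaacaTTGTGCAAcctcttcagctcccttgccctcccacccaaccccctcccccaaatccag
Sult1e1, chr5:87591612-87591861, minus strand: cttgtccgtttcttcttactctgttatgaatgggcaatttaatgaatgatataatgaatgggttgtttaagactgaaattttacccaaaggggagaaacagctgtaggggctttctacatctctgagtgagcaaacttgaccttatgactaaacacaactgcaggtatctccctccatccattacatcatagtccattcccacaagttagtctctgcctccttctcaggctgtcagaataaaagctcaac
The Areg stretch held a full CRE 61 bp before the start, another core match 115 bp before it and a TATA box 31 bp before it. That of Ptgs2 held a C/EBP match at 69 bp and a RUNX match at 197 bp before the start. Ptx3 had a C/EBP match at 57 bp, and Sult1e1 had no match to these motifs. None of the 4 stretches was itself covered by the 4 h alone domain (0 bp of overlap in each), since the domains began downstream of the starts.

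A microRNA pair also lay beside a 4 h alone domain. The mature 3p strands of miR-212 and miR-132, which share their seed (bases 2 to 8, in capitals), are shown because a single domain preceded both hairpins.
mmu-miR-212-3p: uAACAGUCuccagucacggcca
mmu-miR-132-3p: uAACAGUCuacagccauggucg
The domain was 1 peak of 370 bp at chr11:75172587-75172956. It ended 432 bp before the Mir212 hairpin and 726 bp before the Mir132 hairpin on the same strand, 2.33 kb from the nearest coding start, that of Hic1. Mir212 and Mir132 are known as a cyclic AMP-responsive pair. In all, 4 of 1005 annotated hairpins (0.398%) lay within 1 kb of a 4 h alone domain, against 2 (0.199%) for domains marked at 0 h alone and 2 (0.199%) for those at 12 h alone. There were also more 4 h alone domains, 1112 against 649 at 0 h alone and 554 at 12 h alone. The hairpin counts are therefore not read as a difference between times. The other hairpins were Mir193a, 19 bp after a domain of 190 bp, and Mir6392, 84 bp after a domain of 233 bp at the start of Pnpla3.

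Most 4 h alone domains were a single narrow peak. Of the 1112 domains, 982 (88.3%) consisted of 1 peak and none of more than 4. Their span, from first to last base, had a median of 179 bp (95% interval 175 to 187), with quartiles of 145 and 278 bp and a maximum of 2138 bp. The narrowest peak width in the 4 h list, 139 bp, was the span of 204 domains (18.3%). The median of domains marked at 0 h alone was also 179 bp, with 18.2% at the narrowest width, and that of domains at 12 h alone was 201 bp, with 14.4%. The narrowest width differs between the lists (136 bp at 0 h, 139 bp at 4 h and 152 bp at 12 h), so small differences in span between them cannot be told apart from it. Domains with peaks at all 3 times had a median span of 1236 bp. The 4 h alone domains therefore covered 262 kb, or 2.59% of all bases covered at 4 h.

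A minority were wider. Spans of 500 bp or more were found in 116 of the 4 h alone domains (10.4%), against 51 (7.86%) of those at 0 h alone and 44 (7.94%) of those at 12 h alone. Spans of 1000 bp or more were found in 35 (3.15%), against 11 (1.69%) and 17 (3.07%). The number of single-time domains was largest at 4 h, with 1112 against 649 at 0 h alone and 554 at 12 h alone. The 4 h list was also the longest, with 22208, 23619 and 20644 peaks at 0 h, 4 h and 12 h. When the 20644 widest peaks of each list were used, 785 domains were marked at 4 h alone.

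**Figure D1:**
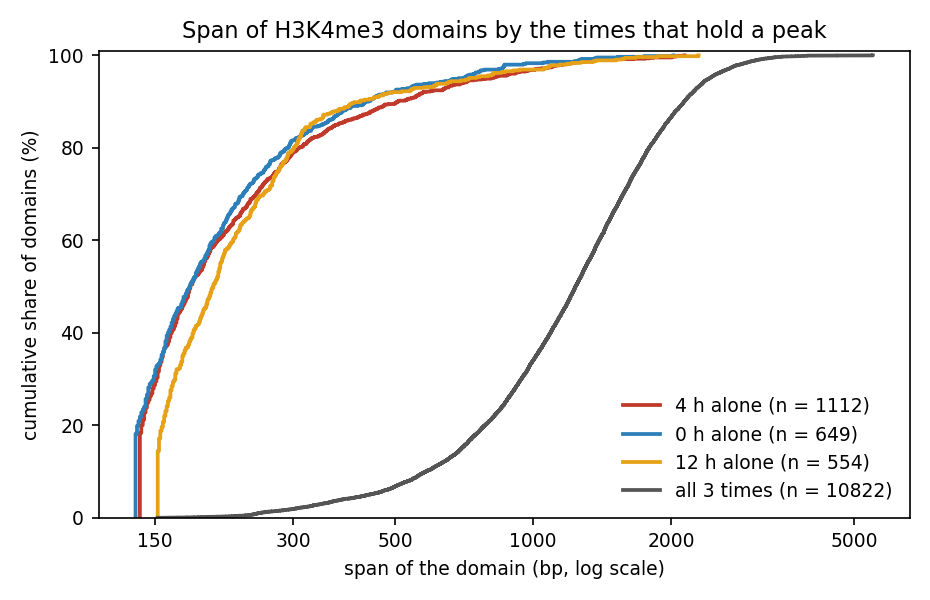
Cumulative share of domains (%) against their span (bp, log axis) for domains with peaks at 4 h alone, 0 h alone, 12 h alone and all 3 times. The 3 single-time curves lie close together, with medians of 179, 179 and 201 bp, and far left of the domains marked at all times (median 1236 bp).

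The merging distance of 1 kb sets which peaks count as separate. The 4 h alone domains closest to a 0 h or 12 h peak lay 1010 bp from it (near B3galnt1, span 154 bp), 1015 bp (at Zfp362, 153 bp) and 1018 bp (near Gm20767, 555 bp). The 4 h peaks just too close to be members lay at 902 bp (near Tmc1, 553 bp), 900 bp (in Col12a1, 158 bp) and 885 bp (at Dip2a, 148 bp). A further 327 runs of 4 h peaks (median span 186 bp) overlapped no 0 h or 12 h peak but lay within 1 kb of one, and are not members. The median distance from a 4 h alone domain to a 0 h or 12 h peak was 40.9 kb, and 50 domains (4.50%) had one within 2 kb.

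The 4 h alone domains were spread over genes and the space between them. A start was counted when it lay within 1 kb, using the annotated first base of protein-coding genes where their strand was known and either gene end where it was not. Of the 1112 domains, 346 (31.1%, interval 28.4 to 33.9) lay at a start, 321 (28.9%) elsewhere in a gene and 445 (40.0%) between genes. The share at starts was 30.8% for domains marked at 0 h alone and 36.3% for those at 12 h alone, whose intervals of 27.3 to 34.5% and 32.3 to 40.4% overlap that of the 4 h alone domains. It was 84.8% for domains marked at all times. Of the 116 domains of 500 bp or more, 47 lay at a start.

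The median distance of a 4 h alone domain from the nearest coding start was 12.0 kb, and 168 domains (15.1%) were more than 100 kb from one. Of the 35 domains of 1000 bp or more, 9 lay at a start, 10 elsewhere in a gene and 16 between genes. Among the 11 such domains at 0 h alone these counts were 2, 7 and 2, and among the 17 at 12 h alone they were 9, 5 and 3. On chromosomes, the 4 h alone share of domains with a 4 h peak lay between 5.98% on chromosome 9 (interval 4.38 to 7.94) and 10.2% on chromosome 16 (7.55 to 13.3), and X was at 10.1% (7.49 to 13.2). Domains had another 4 h alone domain within 50 kb in 128 cases (11.5%), against 8.47% for domains at 0 h alone and 8.12% for those at 12 h alone among their own kind, of which there were fewer.

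**Figure D2:**
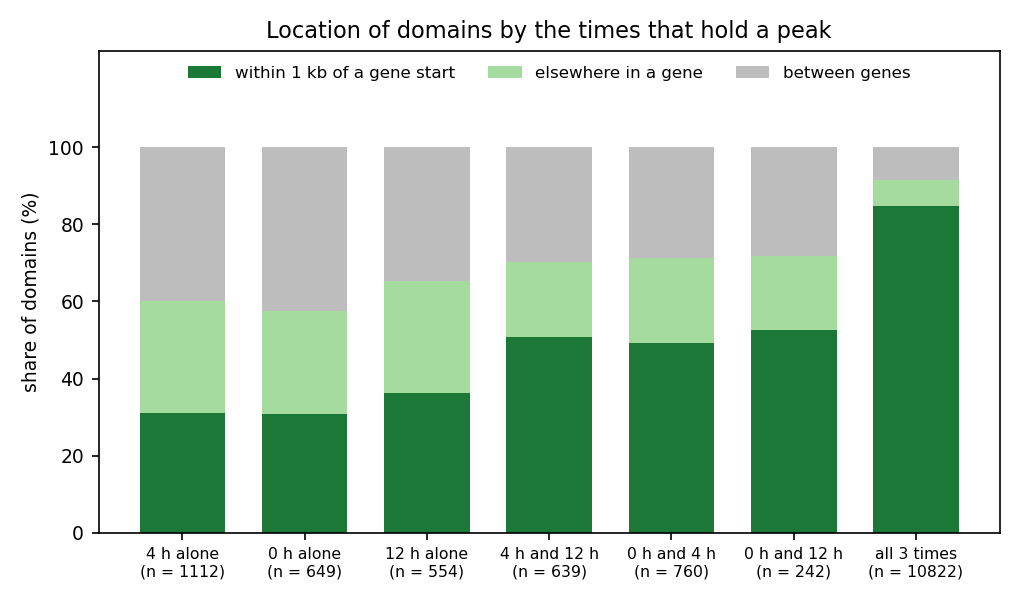
Share of domains (%, stacked to 100) within 1 kb of a protein-coding gene start, elsewhere in a gene and between genes, by the times that hold a peak. The 4 h alone domains had 31.1% at starts, against 84.8% of domains marked at all 3 times.

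Where strand was known, domains at starts sat mostly inside the transcribed side. Of 264 such 4 h alone domains, 39 (14.8%) covered the first base of a gene, 180 (68.2%, interval 62.2 to 73.8) lay wholly downstream of it and 45 (17.0%) wholly upstream. The median gap of the downstream ones was 208 bp. For domains at 0 h alone the shares were 9.43%, 69.2% and 21.4%, and for those at 12 h alone 14.3%, 70.2% and 15.5%. Domains marked at all times covered the first base in 53.6% of cases and were upstream in 1.06%. They were also wider, and the part of span in this difference was not tested.

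A 4 h alone domain lay at the start of 352 of 21631 protein-coding genes (1.63%), and in or within 5 kb of 814 genes (3.76%). Domains at 0 h alone and at 12 h alone lay at the starts of 206 (0.952%) and 205 (0.948%) genes. Among genes with no 0 h or 12 h domain at the start, 317 of 10285 (3.08%) had a 4 h alone domain. Another domain lay at the same start in 35 of the 352 genes, so in those genes the 4 h alone domain lay beside one with another pattern of times. A 4 h alone domain spanning 500 bp or more was at the start of 49 genes (0.227%).

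Genes of the ovulatory response to LH were found at the starts marked at 4 h alone in 6 of 44 cases (13.6%), against 1.63% of all genes. The 6 genes were Ptgs2, Areg, Ptx3, Sult1e1, Has2 and Cd44. All but Cd44 had a domain of 500 bp or more, 5 of 44 (11.4%) against 0.227% of all genes. Of the 11 list members with no 0 h or 12 h domain at the start, 5 had a 4 h alone domain, against 3.08% of all such genes. Among marker lists of other cells, shares by the first rule were 13.3% (2 of 15) for endothelial, 9.09% (1 of 11) for smooth muscle and pericyte, and 8.33% (1 of 12 each) for theca and for erythroid and platelet markers, and 0 of their domains reached 500 bp. Macrophage, neutrophil, lymphocyte, oocyte, epithelial and granulosa marker lists had 0 each by the first rule. By that rule the share of the ovulatory list is thus not set apart from the highest of the small lists, the endothelial one. By the 500 bp rule every list but the ovulatory one had 0. All shares are descriptions, since the lists were chosen with results of these libraries known.

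The prostaglandin and EGF-ligand genes had the widest domains at starts. Ptgs2, the inducible prostaglandin synthase needed for ovulation, had 4 peaks of 279, 144, 206 and 165 bp at chr1:150100170-150102176. They began 139 bp downstream of the first base and covered 794 bp of a span of 2007 bp. Areg, an EGF-like ligand that relays the LH signal to the cumulus cells, had 3 peaks of 269, 474 and 234 bp at chr5:91139824-91141579, beginning 225 bp downstream of its start and covering 977 bp. Both began beyond the promoter stretches printed above.

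Of the genes that build or bind the cumulus matrix, Ptx3, Has2 and Cd44 had 4 h alone domains at the start, whereas Vcan was marked at all times with 1629, 2053 and 1293 bp. Ptx3, a pentraxin that holds the hyaluronan matrix together, had peaks of 590 and 157 bp at chr3:66220084-66221177, beginning 197 bp after its start. Has2, which makes hyaluronan, had 554 covered bp at chr15:56692901-56693554, at 992 bp from a gene end whose strand the tables do not give. Another domain, at chr15:56694763-56695120, lay 217 bp beyond that end covered over 351, 0 and 329 bp at 0 h, 4 h and 12 h. At Has2 the peaks thus lay in different places at 4 h and at the other times, and the gene as a whole was marked in all 3 libraries. Cd44, the hyaluronan receptor, had 1 peak of 208 bp at chr2:102901246-102901453.

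Sult1e1, the sulfotransferase that inactivates estrogen, had peaks of 161 and 447 bp at chr5:87590426-87591126, beginning 485 bp downstream of its start, and a further 4 h alone peak of 151 bp inside the gene. No 0 h or 12 h peak lay at its start.

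The other 38 members of the ovulatory list had no 4 h alone domain at the start. Of the 44, 24 were marked at all 3 times and 7 at 4 h and 12 h. Examples of genes marked at 4 h and 12 h, with 0 bp at 0 h, were Tnfaip6, which crosslinks the cumulus matrix, whose coverage was 1797 bp at 4 h and 794 bp at 12 h, and the metalloproteinase inhibitor Timp1, with 995 and 2300 bp at those times. Peaks at the starts of Tnfaip6 and Timp1 were thus still called at 12 h, unlike those of Ptgs2, Areg, Ptx3 and Sult1e1.

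Counting domains inside a gene or within 5 kb of it, 9 of 44 ovulatory genes (20.5%) had a 4 h alone domain, against 3.76% of all genes. Erythroid and platelet markers had 3 of 12 by this rule. Pgr, the progesterone receptor gene that LH induces, had 3 peaks covering 575 bp at chr9:8902572-8903788, 2.74 kb into the gene. Its start itself had 740, 270 and 414 covered bp at 0 h, 4 h and 12 h, so the start was marked throughout. A further 4 h alone peak of 144 bp lay 29.5 kb upstream of Pgr. Runx2, a transcription factor gene of the ovulatory follicle, had domains covering 704 bp (chr17:44734076-44735244) and 245 bp (chr17:44736586-44736830) far inside the gene. Its start had 136, 2226 and 895 bp at 0 h, 4 h and 12 h. Pparg, a nuclear receptor gene, had 1 internal peak of 239 bp.

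The EGF-ligand cluster on chromosome 5 held several 4 h alone domains within one stretch. Besides Areg they lay in the ligand gene Epgn (170 bp at chr5:91030263-91030432), 9.95 kb from the start of Epgn (1064 covered bp at chr5:91037471-91038625), and 97.9 kb from the start of the ligand gene Btc (332 covered bp at chr5:91303884-91305112). At the near end of the stretch the chemokine gene Cxcl2 had a peak of 171 bp. Domains with peaks at all times lay within 1 kb of the start of the ligand gene Btc and of an end of the ligand gene Ereg, whose strand was not known. The Ereg domain had 136, 478 and 312 bp at 0 h, 4 h and 12 h, in different places. Its 4 h peaks, at chr5:91073093-91073284 and chr5:91073729-91074014, overlapped no 0 h or 12 h peak. The gene end at chr5:91074617 was covered by the 0 h peak and by a 12 h peak, and by no 4 h peak. The Btc domain had 623, 1598 and 834 bp at these times. The start of Epgn had 0, 142 and 152 bp at these times. The covered length within the Ereg and Btc domains was thus largest at 4 h, but at Ereg the 4 h peaks lay apart from the others. Coverage at the Epgn start was near the narrowest widths at 4 h and 12 h, and the Areg start was called at 4 h alone. A peak of 432 bp also lay away from genes beyond Ptgs2, 50.2 kb from the nearest start, that of Pdc.

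**Figure D3:**
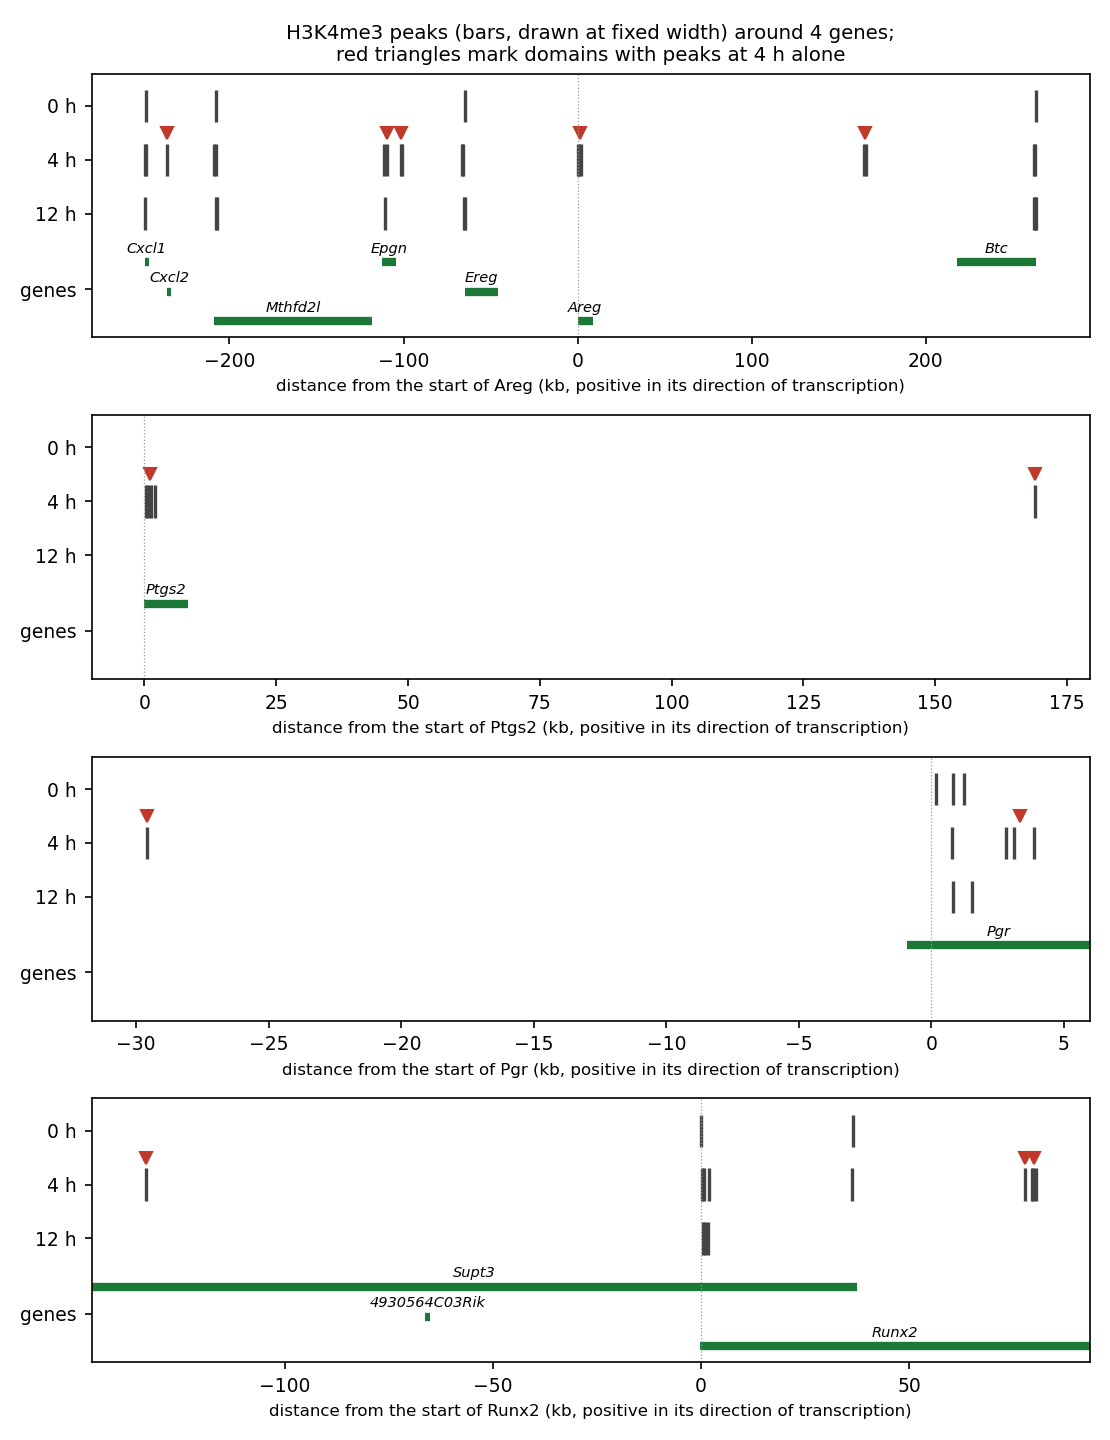
Peaks at 0 h, 4 h and 12 h (vertical bars of fixed width, placed at peak centres) around Areg, Ptgs2, Pgr and Runx2, against distance from each gene's start in kb. Green bars are protein-coding genes and red triangles mark all 4 h alone domains in these stretches. They include those at the starts of Areg and Ptgs2 and inside Pgr and Runx2, and others at or in neighbouring genes or between genes.

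Other response lists had few 4 h alone domains at starts, each of a single peak and 315 bp or less. Immediate early genes, the first to respond to a signal, had 1 of 39 (2.56%). It was Egr4, a zinc finger transcription factor gene, with 144 bp, and 31 of the 39 genes were marked at all 3 times. Lists of cyclic AMP feedback genes (20 members), steroidogenesis and luteinization (24), matrix proteases and inhibitors (35), cholesterol supply (26) and glycolysis (23) had 0 each. Cytokine and chemokine genes had 2 of 34 (5.88%), Cxcl2 with 171 bp and Tnfsf11, the RANK ligand gene, with 294 bp. Growth factor feedback had 1 of 25 (4.00%), the phosphatase gene Dusp14 with 154 bp, and the cell cycle list had 1 of 26 (3.85%), the inhibitor gene Cdkn2a with 139 bp, the narrowest width called. A single call in a list of this size is near the background of 1.63%.

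Angiogenic and vascular signalling genes had 3 of 30 (10.0%, against 1.63% of all genes). Fgf2, a fibroblast growth factor gene, had 168 bp, Edn1, which encodes endothelin-1, had 282 bp, and its receptor gene Ednrb had 142 bp. Each was a single peak. Starts of 15 endothelial markers were marked in 2, 4 and 1 cases at 0 h, 4 h and 12 h, with 0.522, 0.804 and 0.164 kb in all. The 4 h alone ones were Erg with 170 bp and Sox7 with 139 bp, while Pecam1, Cdh5, Tie1 and Vwf had 0 bp at every time. The part of endothelial cells in the vascular genes' counts was not tested.

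Genes of follicular growth, which granulosa cells use before ovulation, had 2 of 30 at starts (6.67%, against 1.63% of all genes), Igfbp5 with 139 bp and Pik3r1 with 315 bp. The Pik3r1 domain lay 867 bp from a start of the gene. All domains within 1 kb of any annotated Pik3r1 start covered 1706, 2189 and 1996 bp at 0 h, 4 h and 12 h. The 4 h value includes the 315 bp of this domain. In the gene or within 5 kb the list had 7 of 30 (23.3%), against 3.76% of all genes. Among the added peaks, those with 174 bp at Inhba, 210 bp at Igf1r and 184 bp at Greb1 were narrow. Inha encodes the inhibin alpha subunit. Its nearby domain covered 337 bp inside the neighbouring gene Obsl1, 1539 bp from the start of Obsl1, while the start of Inha had 780, 658 and 0 bp at 0 h, 4 h and 12 h. The proximity count for Inha therefore does not place the domain at its promoter.

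**Figure D4:**
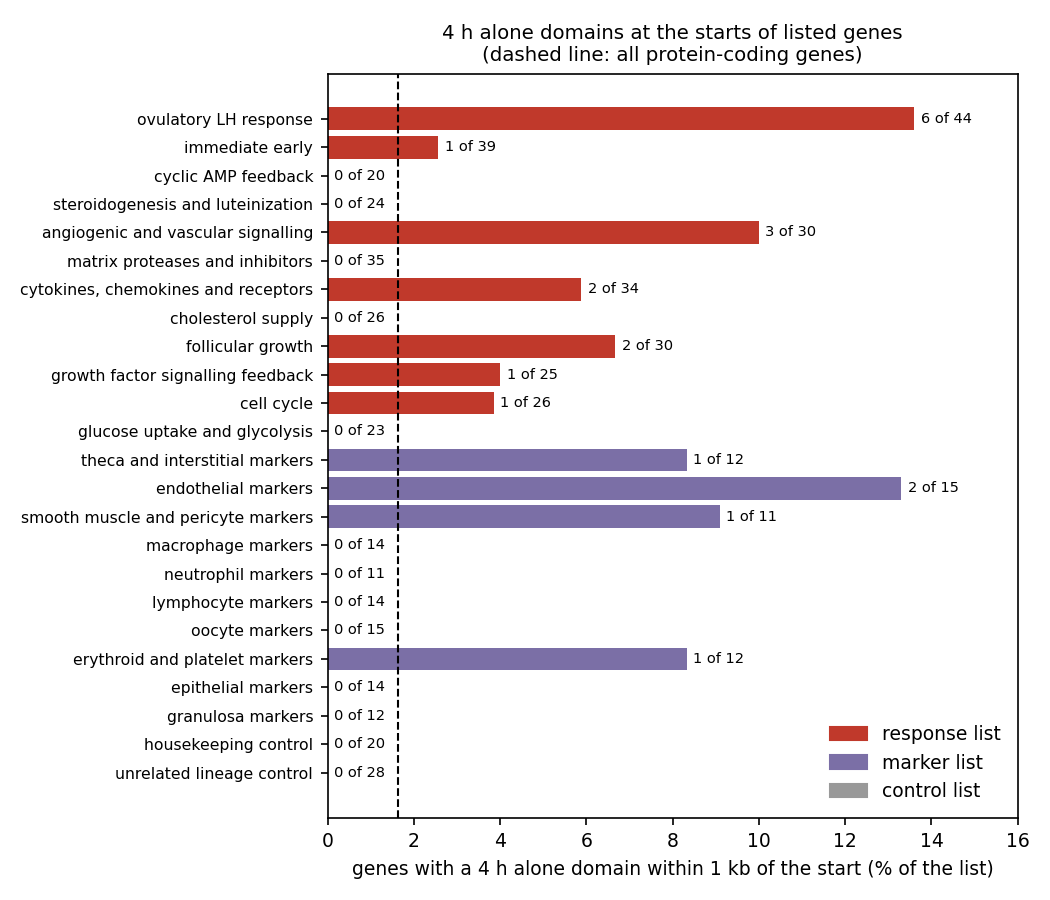
Share of each gene list (%) with a 4 h alone domain within 1 kb of the start, with the counts beside the bars and the share over all protein-coding genes (1.63%) as a dashed line. Response lists are red and marker lists purple, and both control lists stand at 0. The ovulatory list reaches 13.6% (6 of 44).

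The labelled cell type was checked on marker genes. Of 12 granulosa markers, 6, 7 and 6 had a marked start at 0 h, 4 h and 12 h. They included Fshr with 1707, 1495 and 675 bp, Esr2 with 2041, 1750 and 1222 bp and Cyp19a1 with 2045, 845 and 382 bp, while Foxl2, Nr5a2, Inhba, Gata4 and Amh had 0 bp at the start used, at every time. Of 118 markers of other ovarian, blood and immune cells, 11, 17 and 12 were marked at 0 h, 4 h and 12 h, and over all protein-coding genes 10851, 11186 and 10798 of 21631 were. Beyond the endothelial genes, the 4 h alone ones included the smooth muscle gene Myh11 (139 bp) and the blood gene Tal1 (176 bp). Starts of the 14 lymphocyte and 11 neutrophil markers had 0 bp at every time. Of 12 theca and interstitial markers, 3, 4 and 4 were marked at 0 h, 4 h and 12 h, with 2.04 kb in all at 0 h and more at the later times, and Cyp17a1 and Insl3 were at 0 bp throughout. Of 14 macrophage markers, 1 was marked at each time, Cd14 with 378, 328 and 508 bp. Of 12 erythroid and platelet markers, 1, 3 and 1 were marked, with 0.158, 1.07 and 0.488 kb, and the globin genes were at 0 bp. Of 11 smooth muscle and pericyte markers, 0, 2 and 1 were marked, with 0, 0.461 and 0.156 kb, and Acta2 was at 0 bp. At the starts of 20 housekeeping genes and of 28 genes of unrelated lineages there were 0 domains at 4 h alone, and within these genes or 5 kb of them there was 1 in each list, at Eef2 (322 bp) and Gfap (142 bp).

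Outside the lists, the widest 4 h alone domains at starts belonged to genes of varied function. After Ptgs2 and Areg came Trank1 with a span of 1327 bp, the netrin receptor gene Unc5c with 1252 bp, the resistin gene Retn with 1199 bp, Ptx3 with 1094 bp and the ectonucleotidase gene Enpp3 with 1044 bp. Enpp3 was the one among them with a single peak, so its 1044 bp were all covered. Unc5c in contrast had 313 bp covered, and Retn 429 bp. Next were the protocadherin gene Pcdh20 (1022 bp) and the shared start region of the chemokine gene Cxcl16 and Zmynd15 (1011 bp). The remaining ones were Slfn14 (975 bp), Slc35f1 (968 bp), the citrate transporter gene Slc13a5 (890 bp), Sh3rf3 (886 bp), the insulin receptor adaptor gene Grb10 (880 bp) and Lrrc4 (875 bp). For most of these the span exceeded the covered length, so the number of joined peaks, and not only their width, sets the order.

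Several of the widest 4 h alone domains were far from any coding start. The widest of all spanned 2138 bp inside Robo2, a receptor gene for Slit ligands, with 1166 bp covered, 131 kb from the start at chr16:74278232-74280369. Near Pofut2 a domain of 2063 bp with 1263 covered bp lay between genes, 27.0 kb from the start (chr10:77230272-77232334), and another of 1008 bp lay 18.8 kb from it. A domain of 2043 bp was 8.09 kb from the start of the lens crystallin gene Cryaa, beyond the end of the gene. One of 2008 bp inside Arhgef12 had 1531 covered bp (chr9:42976699-42978706). The kinase gene Dyrk1a held one of 1793 bp with 1272 covered bp, 6.77 kb from its start. The other 3 of the 8 widest away from starts, of 1825, 1657 and 1437 bp, lay between genes, nearest to LOC115489044, Atxn7l3b and Gm50595, and the one nearest to Atxn7l3b was 741 kb from it.

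A single gene, Adam11, held 3 of the 4 h alone domains in it or within 5 kb, with 202, 158 and 148 bp, and 31 of the 814 genes held 2 or more. Msi2, an RNA-binding protein gene, held domains spanning 1385 and 304 bp, and Epb41l3 held ones of 837 and 321 bp. In the Serpinb9 cluster on chromosome 13, 639 bp were covered at 4 h alone within the annotated bounds of Serpinb9. They lay 4.66 kb upstream of the start used, which had a 0 h alone peak of 251 bp within 1 kb. A further 1139 bp were covered 17.0 kb from the start of Serpinb9c (chr13:33140059-33141346). Of the 766 domains not at a coding start, 42 (5.48%) were within 1 kb of an annotated non-coding start, against 7.35% of such domains at 0 h alone, 10.5% at 12 h alone and 14.2% at all times. The widest of the 42 spanned 1373 bp at the lncRNA Gm34388.

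Promoters with a 4 h alone domain within 1 kb were intermediate in CpG content, a sequence property that the choice of domains did not use. The measure is the number of CpG dinucleotides over that expected from base composition, in windows from 250 bp before to 50 bp after each start. Over 294 windows of 265 genes its median was 0.658 (95% interval 0.622 to 0.690). It was 0.619 at 0 h alone, 0.661 at 12 h alone, 0.809 where domains had peaks at all times, 0.226 where no domain was near and 0.574 over all windows. Ratios above 0.6 were found in 58.5% of 4 h alone windows, against 81.4% of those marked at all times and 13.1% of those with no domain. The ratio of Areg was 0.819, of Ptgs2 0.617, of Ptx3 0.431 and of Sult1e1 0.0845, so the 4 genes ranged from CpG-rich to CpG-poor.

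**Figure D5:**
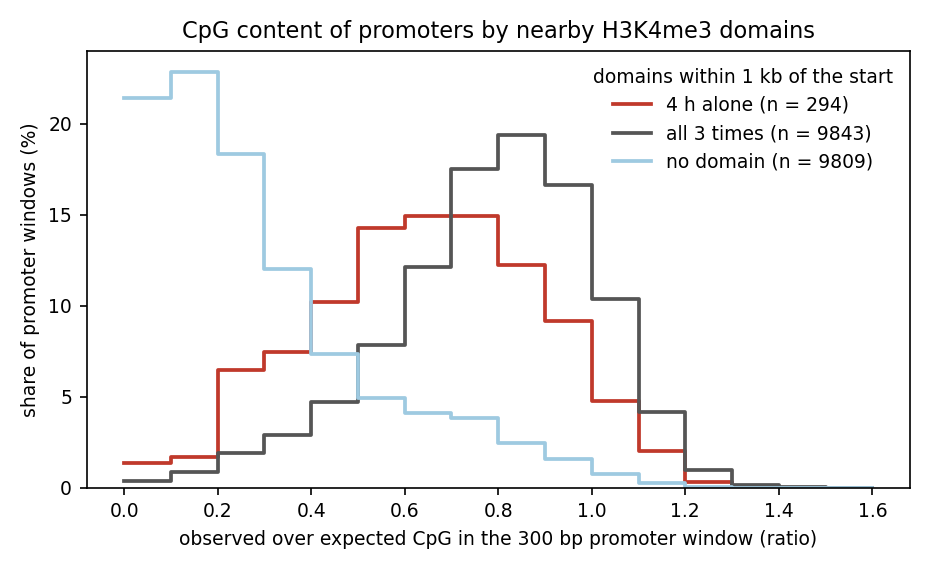
Share of promoter windows (%) by observed over expected CpG (ratio, bins of 0.1) for starts near a 4 h alone domain, near a domain with peaks at all 3 times and near no domain. The 4 h alone windows (median 0.658) lie between the other two, at 0.809 and 0.226.

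Motif matches in the same windows, on either strand, are descriptions of letters and not of binding. The CRE was in 2.72% of 4 h alone windows (interval 1.18 to 5.29) and in 2.26% of all windows, and its core in 21.4% and 23.8%. The AP-1 motif was in 6.46% and 7.04%, and the C/EBP motif in 9.18% and 10.3%. For these 4 motifs the share over all windows lay inside the interval of the 4 h alone windows. The GC box (GGGCGG) was in 62.6% (56.8 to 68.1) against 46.7% of all windows, 57.8% at 0 h alone, 64.3% at 12 h alone and 69.7% at all times. The RUNX motif was in 8.16% (5.30 to 11.9) of 4 h alone windows against 14.7% of all and 10.7% of those marked at all times. The TATA box was in 9.52% (6.42 to 13.5), against 12.7% of all windows and 20.5% of those with no domain. It was in 5.56% at 0 h alone, 7.14% at 12 h alone and 5.60% at all times. Shares for the NR5A motif were 1.02% against 1.29% of all windows, and for CCAAT 39.8% against 38.5%. The CArG box, a serum response element, was in 1 of 294 windows (0.340%, 0.00861 to 1.88), against 1.54% of all windows. A CRE contains the core, so these counts overlap, and base composition differs between the groups of windows.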

How the data were processed

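H3K4me3 was profiled by ChIP-seq in 3 libraries, 1 per time. The authors deposited a peak list per library, holding the chromosome, start, end and name of each peak (positions in bp) and no score, height or read depth, so the depth is unknown and no test across samples was possible. Tools named in the submitters' processing notes are MACS2 2.0.9, Bowtie2 2.2.3 and CASAVA 1.8, with the mm10 build. Neither the threshold for a peak nor any use of input reads is stated there. The word nolambda occurs in peak names at 0 h and 4 h but not at 12 h, and the sequencing lane at 12 h differed from that of the other libraries, per the labels. Whether calling differed between the lists is unknown.

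Peaks were joined into domains within 1 kb with Python 3.11.15 (numpy 2.4.6, pandas 2.3.3, scipy 1.17.1), after a check on simulated lists. Of 21631 protein-coding genes, 17274 had a start with strand in the RefSeq promoter table of GRCm38.p6, the same assembly as mm10, and for the others either gene end was used. Exon and intron positions were not used here. The domains, the 24 gene lists (534 entries) and the rules for named genes were chosen with earlier results of these data known. Named were the 15 widest domains at starts, leaving out unnamed gene models, the 8 widest elsewhere, all list genes with a 4 h alone domain at the start, the 5 genes with the most such domains and the domains next to the merging limit. Genes in the loci of Areg, Ptgs2, Pgr, Runx2, Serpinb9, Pofut2, Inha and the microRNAs, the list genes with domains within 5 kb, and the markers with values at other times were chosen after their values were seen. Alternatives were other merging distances, start windows and peak sets. A few list genes are not reported here.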

Additional observations from a re-analysis of the deposited data

Results flagged for a closer look

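Peaks outside the chromosomes used were present in the lists although the mice were female. Chromosome Y had 28, 43 and 25 of them in the 0 h, 4 h and 12 h lists, and 11 of its 31 domains were marked at 4 h alone, with a median span of 145 bp. The mitochondrial chromosome had 5, 3 and 6 in the 0 h, 4 h and 12 h lists. All but the mitochondrial count at 4 h are above the 3 peaks used as a floor, and no control list was available to set them against.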

How the results depend on the processing

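No paired analysis was possible because each time has 1 library and no result comes from a test. Of 66 recomputed values, 46 stayed within the counting interval (or 1.5 times, for counts) and 20 moved. The number of 4 h alone domains (1112) was 3904 when only overlapping or touching peaks were joined, 1776 without the 12 h list and 1891 without the 0 h list. Their median span (179 bp) was 266 bp with peaks under each list's 25th width percentile left out, 221 bp with equal numbers of the widest peaks, 208 bp without the 12 h list and 205 bp without the 0 h list. The share at starts (31.1%) was 45.1% with touching peaks, 41.6% without narrow peaks, 38.1% and 37.8% without the 12 h and 0 h lists, and 25.1% and 35.1% with start windows of 500 bp and 2.5 kb. Genes with such a domain at the start (352) numbered 1781, 689 and 736 with touching peaks, without the 12 h list and without the 0 h list. Ovulatory genes (6) numbered 12 with touching peaks and 13 without the 12 h list. The CpG median (0.658) was 0.780 with touching peaks and 0.701 with joining within 500 bp. Areg, Ptgs2, Ptx3, Sult1e1 and Cd44 kept their call under all 12 settings that gave a gene list, and Has2 lost it when joining reached 2 kb or 5 kb, with a 500 bp window and without narrow peaks. The shift with touching peaks follows from its construction, since pieces of one broad region then count apart, and leaving out a list admits domains with peaks at that time. The cause of the other shifts was not tested. Without depth or replicates, absence of a peak cannot be told apart from a peak below the caller's threshold.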
